A study of Mus musculus with 8 samples.

Results

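The 10 genes that carry the insulin signal from the receptor to the glucose transporter of fat cells were followed in cultured mouse adipocytes exposed to DoxSa or to DMSO. They were taken by symbol, and all 10 (Insr, Irs1, Irs2, Irs3, Pik3r1, Akt2, Tbc1d4, Pde3b, Foxo1 and Slc2a4) had a row among the 22962 genes of the table. The cells were the stromal vascular fraction of tissue labelled as gonadal from WT mice; in fat, this fraction holds the progenitor, immune and vessel cells that remain once floating fat cells are removed. They were differentiated and are labelled as mature adipocytes. The treatment was DoxSa (4 libraries) or its control DMSO, a solvent (4 libraries), both labelled with day 6. What DoxSa stands for is not given; the title of the series is about 1-deoxysphingolipids, sphingolipids built on alanine instead of serine that lack a hydroxyl group. Neither dose, length of exposure nor age or sex of the mice is given in the sources used here, nor whether the libraries of a group came from separate cultures or animals. The p-values therefore describe the spread between these libraries, which may be technical.

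Insulin binds a receptor with tyrosine kinase activity in the cell membrane (Insr), which phosphorylates docking proteins, the insulin receptor substrates (Irs1, Irs2 and, in rodents, Irs3). These recruit phosphatidylinositol 3-kinase through its regulatory subunit (Pik3r1), and the lipid it makes brings the kinase AKT2 to the membrane. AKT2 phosphorylates TBC1D4, a brake on Rab proteins, which lets vesicles that hold the glucose transporter GLUT4 (Slc2a4) fuse with the cell surface. It also acts on the phosphodiesterase PDE3B, which lowers cyclic AMP and with it lipolysis, and it keeps the transcription factor FOXO1 out of the nucleus. Most of this signal runs through phosphorylation and vesicle traffic, which RNA levels do not measure. Irs3 is a rodent gene that is strongly expressed in fat, and its human counterpart is a pseudogene.

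The start-site regions of the insulin receptor substrate genes are shown because Irs3 was the member that fell and Irs1 and Irs2 were the closest relatives that did not pass the test. Each runs from 250 bases before to 50 bases after the start of the gene on the gene's strand, from RefSeq on GRCm38.p6, a build other than that of the deposited table. Of the 10 members 7 had such a window; Insr, Pde3b and Slc2a4 are named only. Irs3 lies at chr5:137645665-137645964 on the minus strand, Irs1 at chr1:82291390-82291689 on the minus strand and Irs2 at chr8:11008880-11009179 on the minus strand. The capitals mark, on either strand, matches to the Sp1 motif GGGCGG, the box bound by NF-Y, CCAAT, the E-box, which reads CACGTG, and the core of nuclear receptor sites, which reads AGGTCA.
Irs3: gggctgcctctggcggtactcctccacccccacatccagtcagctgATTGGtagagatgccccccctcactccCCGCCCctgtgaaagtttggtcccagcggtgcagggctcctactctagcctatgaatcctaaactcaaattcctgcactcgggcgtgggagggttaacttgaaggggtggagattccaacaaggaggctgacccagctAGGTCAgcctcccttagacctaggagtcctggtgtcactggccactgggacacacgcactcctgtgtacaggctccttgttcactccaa
Irs1: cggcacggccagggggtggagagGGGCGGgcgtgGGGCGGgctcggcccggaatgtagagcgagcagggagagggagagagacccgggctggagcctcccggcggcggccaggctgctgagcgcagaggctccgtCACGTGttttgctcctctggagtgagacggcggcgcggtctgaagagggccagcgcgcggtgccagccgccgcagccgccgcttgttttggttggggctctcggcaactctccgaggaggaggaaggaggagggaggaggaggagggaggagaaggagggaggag
Irs2: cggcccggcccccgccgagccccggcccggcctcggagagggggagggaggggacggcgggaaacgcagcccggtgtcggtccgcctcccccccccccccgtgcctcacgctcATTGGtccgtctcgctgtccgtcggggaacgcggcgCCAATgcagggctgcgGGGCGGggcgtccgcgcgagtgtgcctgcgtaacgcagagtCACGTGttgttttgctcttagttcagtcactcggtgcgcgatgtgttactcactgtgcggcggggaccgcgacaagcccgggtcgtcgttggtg
The windows of Irs1 and Irs2 were rich in G and C, at 71.3% and 72%, with 28 and 41 CpG dinucleotides. The window of Irs3 held 58.3% G and C and 6 CpG, against medians of 52.7% and 7 over all 32851 windows of the table. The E-box stood in the Irs1 and Irs2 windows and not in that of Irs3, and 7.15% of all windows held it. AGGTCA stood in the Irs3 window and in 16.3% of all windows. GGGCGG was found in all 3 and in 35.7% of all windows, while CCAAT, which 37.4% of all windows held, was found in those of Irs3 and Irs2. No match in these 3 windows was found for the TATA box TATAAA (in 13.6% of all windows), the FOXO motif GTAAACA (3.65%), the joint motif of ATF4 and C/EBP, TGATGNAA (3.97%), or the AP-1 motif TGANTCA (7.81%). AGGTCA overlapped none of the other motifs marked there. These matches describe letters and do not show binding.

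In DoxSa, 1 of the 10 genes fell and 0 rose. The gene that fell was Irs3, at 3.10 ± 0.405 FPKM in DoxSa and 4.13 ± 0.445 FPKM in DMSO (SD, n = 4 each), which was 25.0% less. In such bulk samples, fewer cells of a type and less RNA per cell cannot be told apart. FPKM is a read count divided by gene length and by library size. The other 9 genes, among them the receptor, AKT2 and GLUT4, did not pass the test, and their mean levels in DoxSa lay between 0.849% and 10.2% below those in DMSO. A gene passed when limma, fitted to log2(FPKM + 1) of the 12060 genes whose mean over the 8 libraries was 0.5 FPKM or more, gave a Benjamini-Hochberg adjusted p under 0.05. All 10 members were above that minimum. Over all tested genes 5.9% passed, 3.88% as higher and 2.02% as lower, so that 1 call among 10 genes is near the general share. With quantile normalization, 384 genes were higher and 316 lower, in place of 468 and 244. Of the 10 members 1, Irs3, had groups that did not overlap, with DoxSa lower, as had 4.71% of all tested genes. An unadjusted p under 0.05 was reached by 2 members, both lower, and by 7.24% of all tested genes in that direction. All 10 log2 fold changes were below 0, with a median of -0.07, while the median over all tested genes was 0.01, and 5221 of the 12060 were below 0. The signs of Irs2, Tbc1d4 and Foxo1 were not stable, since each turned positive without some library.

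**Figure D1:**
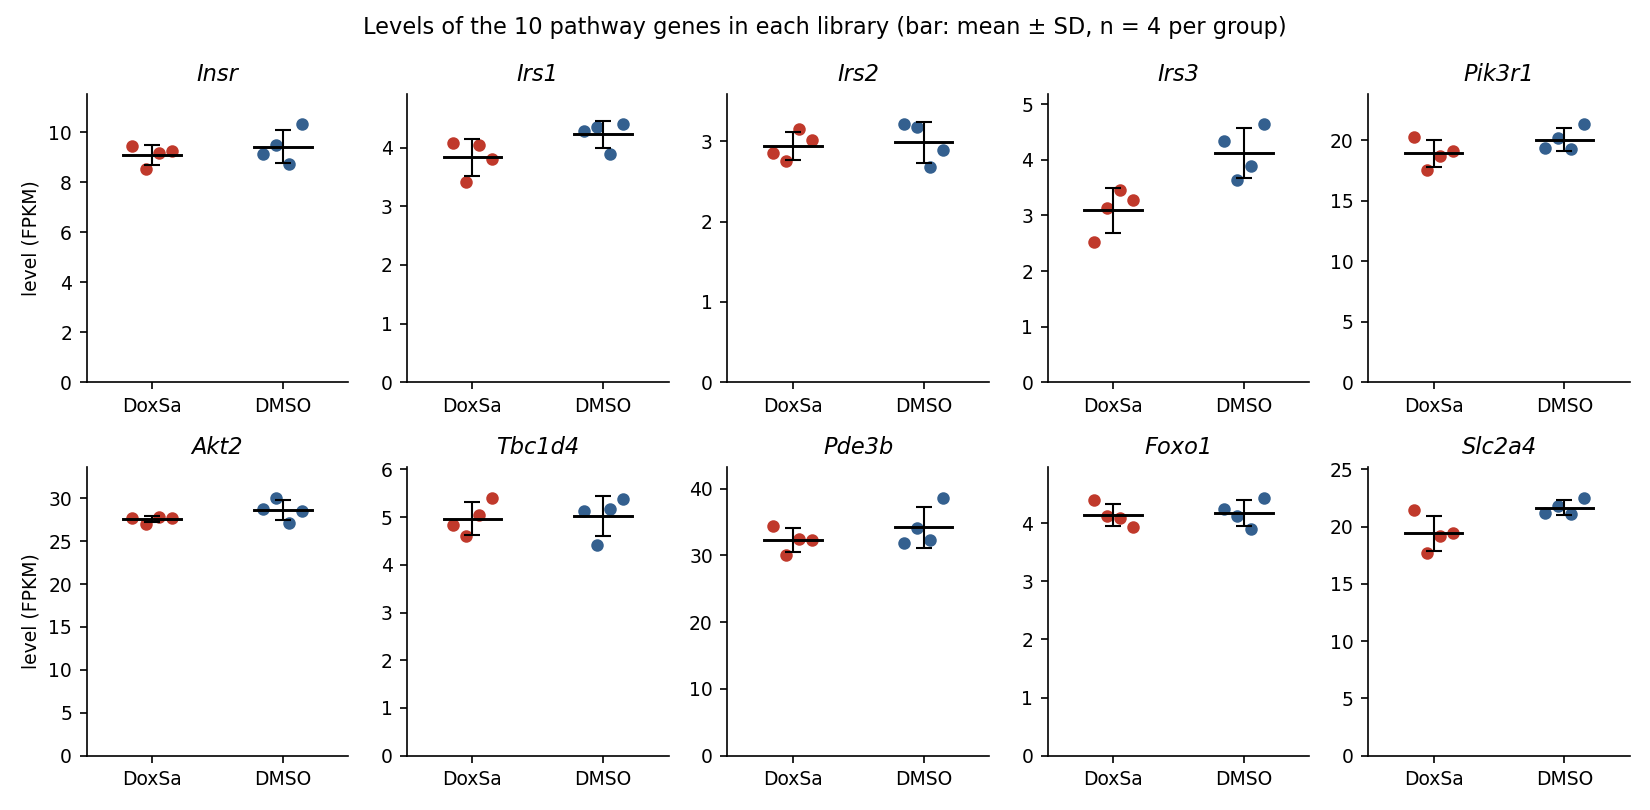
Levels of the 10 pathway genes in FPKM (linear axes from 0), with a point for each library, a bar for the mean and whiskers for the SD (n = 4 per group). The groups are apart for Irs3, at 2.52 to 3.46 FPKM in DoxSa and 3.64 to 4.64 FPKM in DMSO, and overlap in the other 9 panels.

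The 8 libraries held 39213008 to 41365861 reads assigned to genes, as recovered from the steps in the FPKM values, and 18726 to 19108 genes per library were above 0. The adipocyte label fits the markers, with Adipoq, the adiponectin gene, at 772 ± 19.2 FPKM in DoxSa and 774 ± 29.8 FPKM in DMSO. Macrophage transcripts were also abundant, with Lyz2 at 5051 ± 227 FPKM in DoxSa and 4631 ± 330 FPKM in DMSO. Of 14 adipocyte markers 0 rose and 1 fell, the resistin gene Retn; 12 of the 14 log2 fold changes were below 0, with a median of -0.07, and their part in the signs of the pathway genes was not tested. Their summed level was 12214 to 12914 FPKM in DoxSa and 12279 to 12749 FPKM in DMSO. Of 12 macrophage markers 3 rose (Cd14, Ptprc and Fcgr1) and 0 fell, with sums of 6541 to 7015 FPKM in DoxSa and 5879 to 6803 FPKM in DMSO. Of their log2 fold changes 11 were above 0 and 1 below, with a median of 0.11. Their part in the signs of the pathway genes was not tested either. Over all tested genes 3.88% were called higher and 2.02% lower. Of 12 tested preadipocyte and fibroblast markers 1 rose and 2 fell, with sums of 3474.5 to 3915 FPKM in DoxSa and 3585 to 3945 FPKM in DMSO. Of 7 tested smooth muscle and pericyte markers 4 fell, with sums of 413 to 468 FPKM in DoxSa and 589 to 656 FPKM in DMSO. Sums in DoxSa and DMSO were 3.53 to 3.80 and 2.51 to 3.62 FPKM for endothelial, 11.6 to 16.2 and 16.8 to 17.3 FPKM for mesothelial, 2.01 to 2.42 and 2.52 to 3.33 FPKM for striated muscle, and 1.05 to 1.19 and 0.951 to 1.48 FPKM for brown adipocyte markers. Lymphocyte markers summed to at most 0.0251 FPKM in DoxSa and 0.120 FPKM in DMSO.

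The receptor gene Insr had 9.47, 8.53, 9.18 and 9.26 FPKM in DoxSa 1 to 4, against 9.15, 9.51, 8.75 and 10.3 FPKM in DMSO 1 to 4. The groups overlapped, with DMSO 4 above and DoxSa 2 below the rest. Its log2 fold change was -0.04 ± 0.05 (SE, 95% interval -0.16 to 0.07, limma adjusted p = 0.713). Igf1r, the related receptor for insulin-like growth factor, measured 3.08 ± 0.154 FPKM in DoxSa and 3.47 ± 0.227 FPKM in DMSO, with a log2 fold change of -0.13 ± 0.05 that did not pass (limma adjusted p = 0.185). Its groups did not overlap, with DoxSa lower, as was true of 4.71% of all tested genes.

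Among the substrates, Irs3 had 2.52, 3.13, 3.46 and 3.27 FPKM in DoxSa 1 to 4, against 4.33, 3.64, 3.89 and 4.64 FPKM in DMSO 1 to 4. Every DoxSa library lay below every DMSO library, with DoxSa 1 the lowest and DMSO 4 the highest. DoxSa 3 and DMSO 2 were the closest across the gap. The log2 fold change was -0.33 ± 0.08 (SE, 95% interval -0.50 to -0.15, limma adjusted p = 0.0397), larger in size than that of 97.1% of all tested genes. Behind these values stood 244, 290, 331 and 316 reads in DoxSa and 414, 334, 370 and 444 reads in DMSO. The coefficient of variation between libraries was 13.1% in DoxSa and 10.8% in DMSO, where counting error alone would give 5.82% and 5.06%. The call was near the threshold: the log2 fold change lay between -0.42 and -0.26 over 19 alternative settings, 10 of which kept the call (adjusted p from 0.0274 to 0.159). Leaving out DMSO 1, 3 or 4 or DoxSa 1, 2 or 4 ended it, with adjusted p of 0.0830, 0.0597, 0.0886, 0.0871, 0.0910 and 0.0564. So did library quality weights (0.0519), no filter on low values (0.159) and a replicate block, which pairs same-numbered libraries.

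Irs3 was also set against Adipoq, as 1000 times the ratio of its FPKM to that of Adipoq, and stood at 3.16, 4.08, 4.51 and 4.34 in DoxSa 1 to 4. The values in DMSO 1 to 4 were 5.49, 4.99, 4.99 and 5.84. On this scale the groups lay apart, at 4.02 ± 0.602 in DoxSa and 5.33 ± 0.414 in DMSO (SD, n = 4 each). Because Adipoq hardly differed between the groups (log2 fold change -0.0035), this restates the separation of Irs3 and is no further test of it. Markers that passed the test were Retn, 3 of 12 macrophage markers (higher), 4 of 7 smooth muscle and pericyte markers (lower) and 3 of 12 preadipocyte and fibroblast markers, with Icam1 higher and F3 and Pdgfrb lower. Their part in the fall of Irs3 was not tested.

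Irs1, the main substrate in fat and muscle, had 4.07, 3.41, 4.05 and 3.81 FPKM in DoxSa 1 to 4, against 4.28, 4.35, 3.89 and 4.40 FPKM in DMSO 1 to 4. DMSO 3 lay among the DoxSa libraries and DoxSa 2 was the lowest. Its log2 fold change was -0.11 ± 0.06 (95% interval -0.24 to 0.01, limma adjusted p = 0.302). Irs2, the substrate best known from liver and pancreatic beta cells, had 2.85, 2.76, 3.15 and 3.01 FPKM in DoxSa 1 to 4, against 3.21, 3.17, 2.68 and 2.89 FPKM in DMSO 1 to 4. The highest and the lowest libraries were both DMSO libraries. The log2 fold change of -0.01 ± 0.06 (95% interval -0.14 to 0.11, limma adjusted p = 0.937) turned to 0.01 without DMSO 1, without DMSO 2 or without DoxSa 2. In the GENCODE annotation of GRCm38, an antisense gene overlaps exons of Irs1, Irs2 and Foxo1, and because no strand setting is given, reads of such partners cannot be told apart. Exons of Irs3 overlap no other gene there.

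Pik3r1, the regulatory subunit that binds the phosphorylated substrates, had 20.3, 17.6, 18.7 and 19.1 FPKM in DoxSa 1 to 4, against 19.4, 20.2, 19.3 and 21.3 FPKM in DMSO 1 to 4. The groups overlapped through DoxSa 1, and the log2 fold change was -0.08 ± 0.05 (95% interval -0.19 to 0.03, limma adjusted p = 0.405). The related subunit Pik3r2 measured 14.7 ± 0.408 FPKM in DoxSa and 15.3 ± 0.859 FPKM in DMSO, with a log2 fold change of -0.05 ± 0.04. The low-level subunit Pik3r3 measured 1.88 ± 0.181 FPKM in DoxSa and 2.38 ± 0.253 FPKM in DMSO, a log2 fold change of -0.23 ± 0.07 just short of the threshold (limma adjusted p = 0.0682). Settings under which it passed include voom on the recovered reads, quantile normalization and library quality weights (adjusted p = 0.0321, 0.0463 and 0.0492). The catalytic subunit Pik3ca measured 10.2 ± 0.607 FPKM in DoxSa and 9.58 ± 0.480 FPKM in DMSO, with a log2 fold change of 0.08 ± 0.05 (adjusted p = 0.428).

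Akt2, the AKT form needed for insulin-driven glucose uptake in fat, had 27.7, 27.0, 27.8 and 27.7 FPKM in DoxSa 1 to 4, against 28.8, 30.0, 27.1 and 28.5 FPKM in DMSO 1 to 4. DMSO 3 lay within the range of the DoxSa libraries and the other 3 DMSO libraries above them. With 7673 to 8419 reads per library it was measured closely, with a coefficient of variation of 1.27% in DoxSa and 4.17% in DMSO. The log2 fold change was -0.05 ± 0.04 (95% interval -0.13 to 0.03, limma adjusted p = 0.486). Akt1 was more abundant, at 62.3 ± 1.85 FPKM in DoxSa and 64.3 ± 2.13 FPKM in DMSO (adjusted p = 0.554).

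Tbc1d4, the AKT substrate that holds back GLUT4 vesicles, had 4.84, 4.60, 5.04 and 5.404 FPKM in DoxSa 1 to 4, against 5.13, 4.42, 5.18 and 5.39 FPKM in DMSO 1 to 4. The ranges were nearly the same, and the log2 fold change was -0.01 ± 0.06 (95% interval -0.15 to 0.12, limma adjusted p = 0.944), with a positive sign without DMSO 4 or without DoxSa 2 and with library quality weights. Its relative Tbc1d1 measured 4.38 ± 0.187 FPKM in DoxSa and 4.09 ± 0.291 FPKM in DMSO (log2 fold change 0.08 ± 0.05, adjusted p = 0.439).

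Slc2a4, the gene of GLUT4, had 21.4, 17.7, 19.2 and 19.4 FPKM in DoxSa 1 to 4, against 21.2, 21.8, 21.1 and 22.5 FPKM in DMSO 1 to 4. DoxSa 2, 3 and 4 lay below all DMSO libraries and DoxSa 1 lay among them. The log2 fold change of -0.15 ± 0.05 (95% interval -0.26 to -0.04) did not pass in limma (Benjamini-Hochberg adjusted p = 0.128). Without DoxSa 1 it was -0.20 and passed (adjusted p = 0.0423), and over the other 18 settings the adjusted p lay above 0.05. Its reads numbered 2193 to 2879 per library. Slc2a1, the insulin-independent transporter GLUT1, measured 72.3 ± 5.90 FPKM in DoxSa and 69.7 ± 2.13 FPKM in DMSO, a log2 fold change of 0.05 ± 0.05 (adjusted p = 0.683). Lnpep, an aminopeptidase that travels in GLUT4 vesicles, measured 12.4 ± 0.905 FPKM in DoxSa and 13.0 ± 0.782 FPKM in DMSO (log2 fold change -0.06 ± 0.06, adjusted p = 0.612).

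Pde3b, through which insulin curbs lipolysis, had 34.3, 30.0, 32.5 and 32.2 FPKM in DoxSa 1 to 4, against 31.8, 34.1, 32.3 and 38.6 FPKM in DMSO 1 to 4. DMSO 4 stood above all others and the rest overlapped. The log2 fold change was -0.08 ± 0.06 (95% interval -0.21 to 0.05, limma adjusted p = 0.531). Pde3a, its relative, was low, at 1.02 ± 0.0892 FPKM in DoxSa and 0.953 ± 0.0807 FPKM in DMSO. Foxo1 had 4.39, 4.13, 4.10 and 3.94 FPKM in DoxSa 1 to 4, against 4.24, 4.13, 3.90 and 4.44 FPKM in DMSO 1 to 4. These overlapped throughout, with a log2 fold change of -0.01 ± 0.05 (95% interval -0.12 to 0.10, adjusted p = 0.949) that was positive without DMSO 4 or without DoxSa 4. Foxo3, a sister factor, measured 9.63 ± 0.642 FPKM in DoxSa and 10.2 ± 0.424 FPKM in DMSO (adjusted p = 0.442).

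**Figure D2:**
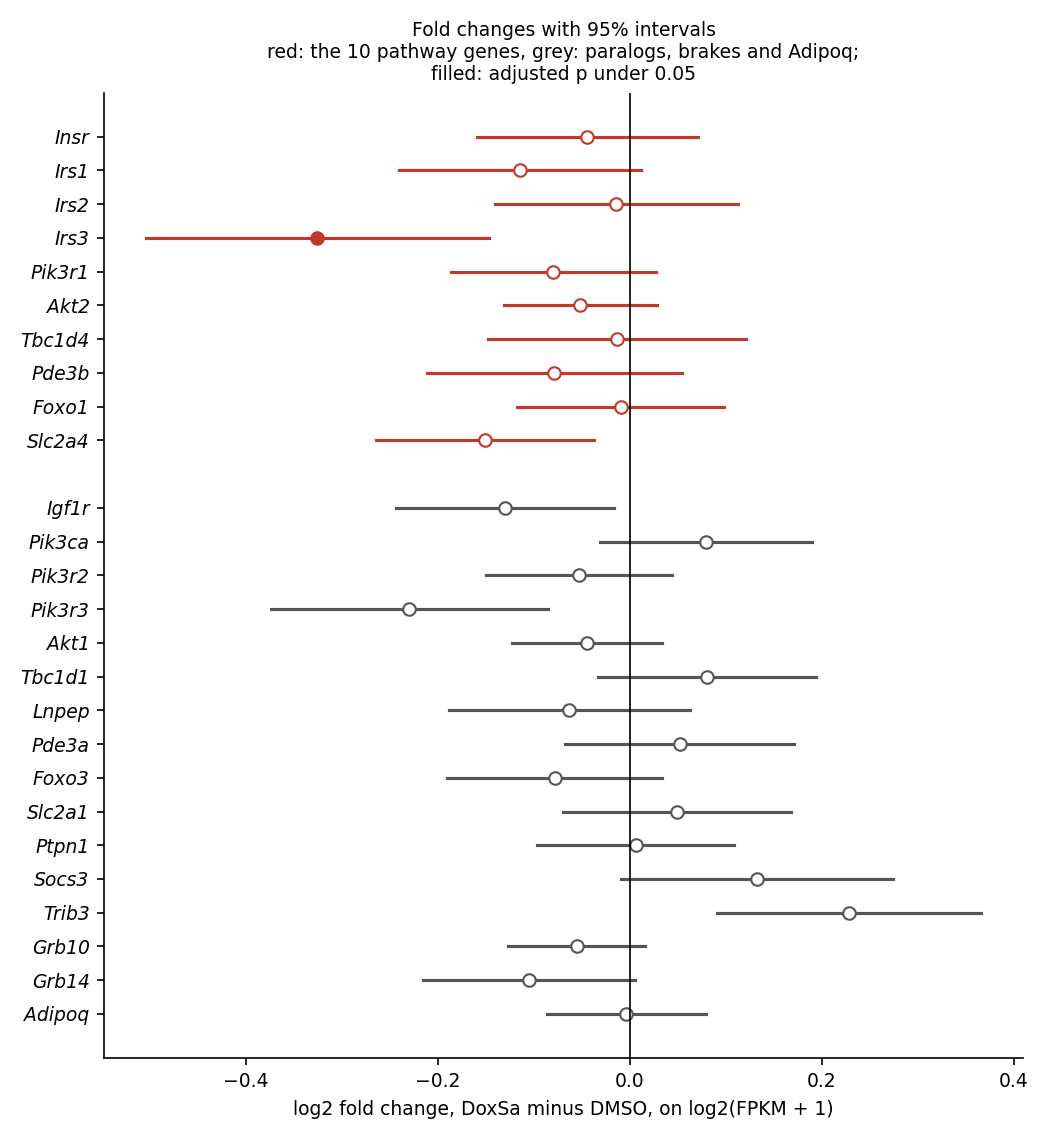
Log2 fold changes (DoxSa minus DMSO, on log2(FPKM + 1)) with 95% intervals of the limma fit, for the 10 pathway genes (red) and for their relatives, the brakes Ptpn1, Socs3, Trib3, Grb10 and Grb14, and Adipoq (grey). Filled points passed an adjusted p of 0.05, which among the genes drawn was Irs3 alone at -0.33; the intervals of Slc2a4, Igf1r, Pik3r3 and Trib3 also leave out 0 without passing.

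In level per length, averaged over the 8 libraries, the pathway spanned 2.96 FPKM for Irs2 to 33.2 FPKM for Pde3b. The order was Irs2, Irs3 (3.61 FPKM), Irs1 (4.03 FPKM), Foxo1 (4.16 FPKM), Tbc1d4 (4.9998 FPKM), Insr (9.27 FPKM), Pik3r1 (19.5 FPKM), Slc2a4 (20.5 FPKM), Akt2 (28.1 FPKM) and Pde3b. The ranges of neighbours overlapped except between Tbc1d4 and Insr, between Insr and Pik3r1 and between Slc2a4 and Akt2. The substrates and the transcription factor were thus the low end, and the kinase, the transporter and the phosphodiesterase the high end, in both groups.

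Some libraries stood out across several members. DMSO 4 was the highest of the 8 libraries for 7 of the 10 genes, and DoxSa 2 the lowest for 6. Over all tested genes DMSO 4 was the highest for 6.50% and the lowest for 25.0%, and DoxSa 2 was the lowest for 11.3%. Among the 14 adipocyte markers DMSO 4 was the highest for 3 and DoxSa 2 the lowest for 6. Among the 12 macrophage markers DMSO 4 was the highest for 0 and the lowest for 7, and DoxSa 2 was the lowest for 0. The part of either cell type in the values of the members was not tested. With DoxSa 2 left out, the log2 fold changes of Slc2a4, Irs1 and Pik3r1 shrank to -0.11, -0.07 and -0.05, and that of Irs3 was -0.33. Those of Pde3b and Insr were -0.04 and -0.02 without DoxSa 2, and -0.02 and -0.0042 without DMSO 4. Pik3r1 was -0.05 without DMSO 4, Akt2 was -0.03 without DMSO 2 and Insr was -0.08 without DMSO 3.

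**Figure D3:**
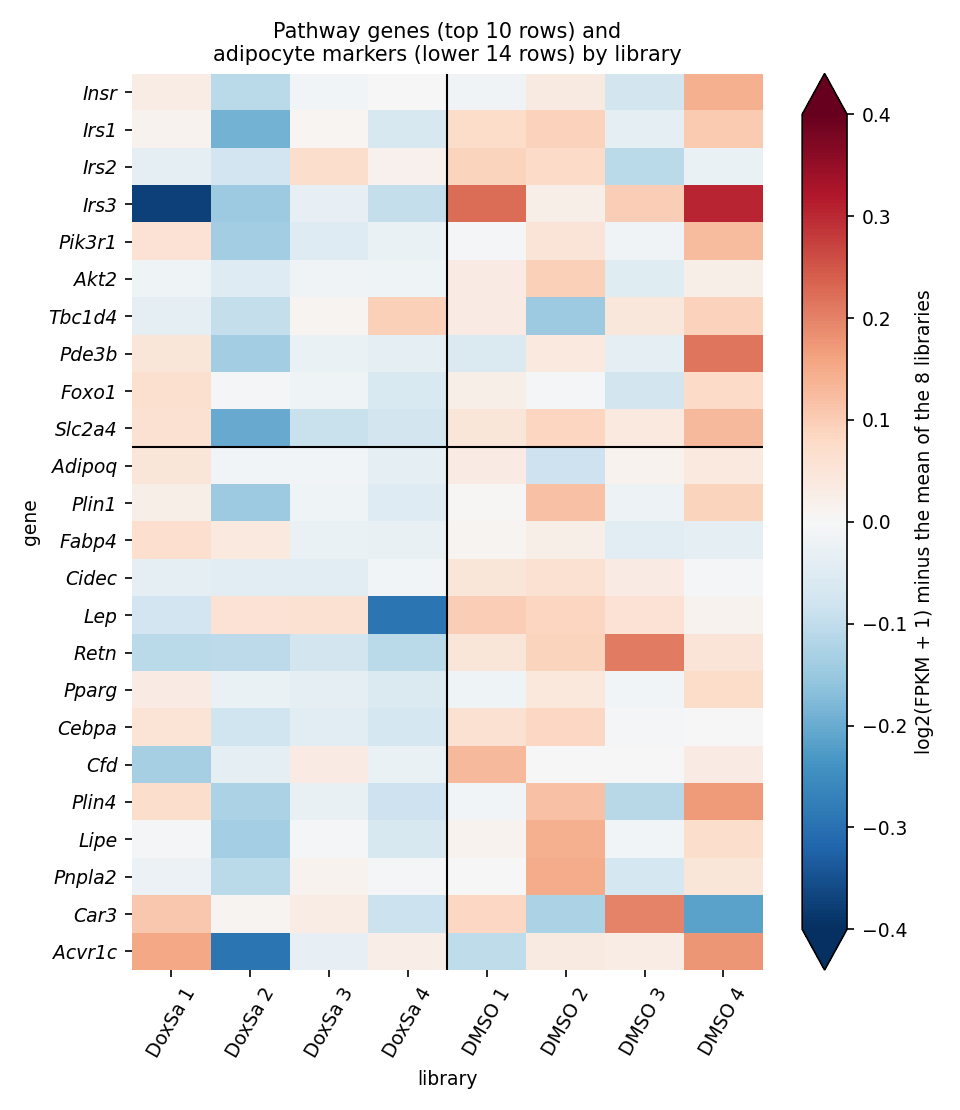
Log2(FPKM + 1) of each gene minus its mean over the 8 libraries (colour, red above and blue below the mean), for the 10 pathway genes (upper rows) and 14 adipocyte markers (lower rows), with DoxSa libraries left of DMSO libraries. The column of DoxSa 2 is mostly blue and that of DMSO 4 mostly red among the pathway genes, and Irs3 is the row with the strongest colours.

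Ratios between related genes, which do not depend on the scaling of a library, were tested for 10 pairs chosen after the values were seen, with an exact permutation test (two-sided, all 70 ways to assign the libraries). The ratio of Irs3 to Irs2 was 0.884, 1.13, 1.10 and 1.09 in DoxSa 1 to 4, against 1.35, 1.15, 1.45 and 1.61 in DMSO 1 to 4. The groups were apart by a narrow margin between DoxSa 2 and DMSO 2, and the exact p of 0.0286 is the smallest the design allows (adjusted p = 0.238 over the 10 ratios). Because Irs2 hardly differed between the groups (log2 fold change -0.01), this ratio largely restates the separation of Irs3 and is no further test of it. The ratio of Irs3 to Irs1 was 0.813 ± 0.132 in DoxSa and 0.976 ± 0.0952 in DMSO (exact p = 0.114). None of the 10 ratios passed, but with 4 libraries a group a lone ratio at the smallest possible p cannot pass the adjustment over 10, so the adjusted values say little either way. The ratio of GLUT4 to GLUT1 RNA was 0.337, 0.240, 0.254 and 0.255 in DoxSa 1 to 4, against 0.295, 0.316, 0.314 and 0.318 in DMSO 1 to 4. It was lower in 3 DoxSa libraries than in any DMSO library, and highest in DoxSa 1 (exact p = 0.143). The ratio of Pde3b to Pde3a was 31.6 ± 2.11 in DoxSa and 35.9 ± 2.51 in DMSO (exact p = 0.0571), and that of Akt2 to Akt1 was 0.443 ± 0.0182 in DoxSa and 0.446 ± 0.0200 in DMSO (exact p = 0.714).

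**Figure D4:**
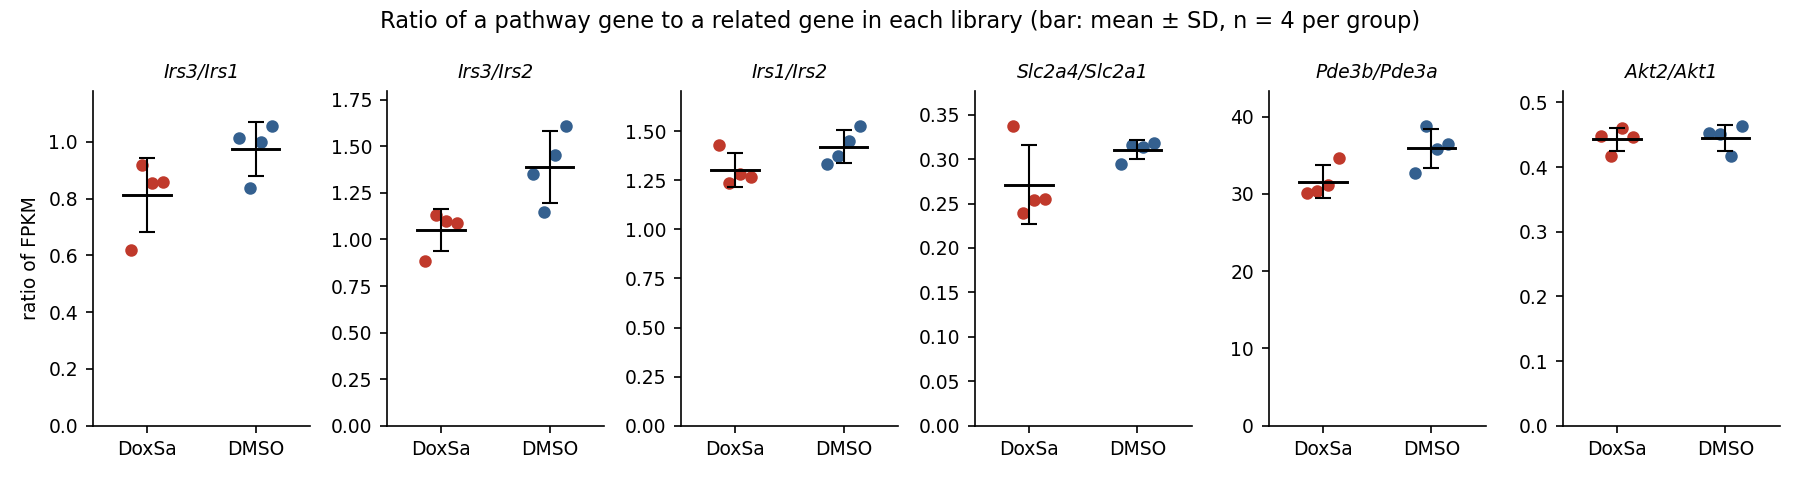
Ratio of FPKM of a pathway gene to a related gene (linear axes from 0), with a point for each library and the mean ± SD (n = 4 per group). The groups are apart for Irs3 to Irs2, at 0.884 to 1.13 in DoxSa and 1.15 to 1.61 in DMSO, and overlap in the other panels.

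Beyond the 10 members, 172 other tested genes of the pathway were read by role. Of these 5 rose and 2 fell, or 4.07%, against 5.9% of all genes, and their median log2 fold change was -0.01. Among the 10 lists, 0 of 15 kinases of the PI3K, AKT and mTORC2 group, 0 of 27 genes of GLUT4 vesicle traffic, 0 of 14 glucose transporter, hexokinase and glycogen genes, 0 of 20 genes around PDE3B and lipolysis and 0 of 12 genes of the mTORC1 branch passed. At an unadjusted limma p under 0.05 these lists held 1, 2, 2, 5 and 2 genes, while 19.8% of all genes reached it. By voom, 1 gene passed in each of the kinase, vesicle traffic and lipolysis lists. In the glucose transporter list 1 gene passed as higher under the replicate block and without DMSO 1. In the lipolysis list 1 gene passed as higher under the block and without DMSO 2. Of 15 receptors and adaptors 1 rose, Dok1, a docking protein that dampens tyrosine kinase signals, at 21.6 ± 0.546 FPKM in DoxSa and 18.4 ± 1.05 FPKM in DMSO (log2 fold change 0.22 ± 0.04, limma adjusted p = 0.0142).

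Of 24 genes listed as brakes on the signal 2 rose and 0 fell, or 8.33%, where 3.88% of all tested genes were called higher. By voom 4 of the brakes were higher, as were 627 of all 12060 tested genes. The list as a whole was evenly split, with 12 log2 fold changes above 0, 12 below 0 and a median of -0.0018. Enpp1, an ectoenzyme that can bind and inhibit the insulin receptor, had 4.76, 5.35, 5.18 and 5.16 FPKM in DoxSa 1 to 4, against 3.83, 3.51, 4.27 and 3.61 FPKM in DMSO 1 to 4. All DoxSa libraries lay above all DMSO libraries, with a log2 fold change of 0.35 ± 0.06 (limma adjusted p = 0.00564), and the call held in all 19 alternatives. Groups that did not overlap, in either direction, were found for 12.5% of all tested genes. Ppp1r15a rose as well, to 20.7 ± 0.894 FPKM in DoxSa, against 14.9 ± 1.08 FPKM in DMSO (0.45 ± 0.05, adjusted p = 6.75e-04). It is known mainly as the phosphatase subunit that ends the integrated stress response, not as an insulin brake. Trib3, a stress-induced pseudokinase that binds AKT, measured 19.3 ± 0.935 FPKM in DoxSa and 16.4 ± 1.61 FPKM in DMSO, a log2 fold change of 0.23 ± 0.06 that did not pass (adjusted p = 0.0580). Settings under which it passed include voom, library quality weights, a minimum of 2 FPKM and the fit without DMSO 2 (adjusted p = 0.0308, 0.0390, 0.0491 and 0.0286).

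Other brakes named here did not pass. The cytokine-induced inhibitor Socs3 measured 14.5 ± 1.04 FPKM in DoxSa and 13.1 ± 1.17 FPKM in DMSO (log2 fold change 0.13 ± 0.06, 95% interval -0.01 to 0.27, limma adjusted p = 0.286). The receptor phosphatase Ptpn1 measured 12.8 ± 0.456 FPKM in DoxSa and 12.7 ± 0.754 FPKM in DMSO (95% interval of the log2 fold change -0.10 to 0.11). The receptor-binding adaptor Grb10 measured 47.4 ± 0.628 FPKM in DoxSa and 49.3 ± 1.55 FPKM in DMSO (adjusted p = 0.388). Its relative Grb14 measured 14.2 ± 1.115 FPKM in DoxSa and 15.3 ± 0.0977 FPKM in DMSO (adjusted p = 0.274).

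Of 13 kinases that can phosphorylate the substrates on serine 1 rose, Map4k4, at 45.4 ± 1.18 FPKM in DoxSa and 40.8 ± 1.19 FPKM in DMSO (log2 fold change 0.15 ± 0.03, limma adjusted p = 0.0270). That call held in 8 of 19 alternatives and ended without DMSO 1 or 3 or DoxSa 1, 3 or 4, leaving 0 in the list, and under each of the 3 other scalings. Of 22 FOXO factors and targets 1 rose, the growth arrest gene Gadd45a, also known as a stress gene, at 20.8 ± 0.707 FPKM in DoxSa and 15.1 ± 2.08 FPKM in DMSO (0.45 ± 0.08, adjusted p = 0.00718). These calls are 7.69% of the serine kinases and 4.55% of the FOXO list, where 3.88% of all tested genes were called higher. In the FOXO list 8 log2 fold changes were above 0 and 14 below, with a median of -0.02.

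Of 11 lipogenic genes that insulin induces 2 fell and 0 rose, with a median log2 fold change of -0.13 and 10 of the 11 below 0. The 2 genes are 18.2% of the list, where 2.02% of all tested genes were called lower. The list is short and was chosen with earlier results of these data known, so these shares are no test of it. Of the adipocyte markers, 12 of 14 were below 0 as well and Retn fell; their part in these values was not tested. Acly, which makes cytosolic acetyl-CoA, had 175, 157, 179 and 175 FPKM in DoxSa 1 to 4, against 185, 203, 195 and 207 FPKM in DMSO 1 to 4. Me1, which makes NADPH, measured 326 ± 13.9 FPKM in DoxSa and 370 ± 22.9 FPKM in DMSO. Their log2 fold changes were -0.20 ± 0.05 and -0.18 ± 0.05 (limma adjusted p = 0.0296 and 0.0492). Both calls were near the threshold and held in 9 (Acly) and 6 (Me1) of 19 alternatives. In this list 0 genes passed without DMSO 2, 3 or 4 or without DoxSa 2 or 4. Without DoxSa 3 the 1 gene that passed was Acly. Without DoxSa 1 the 1 gene that passed was neither Acly nor Me1.

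**Figure D5:**
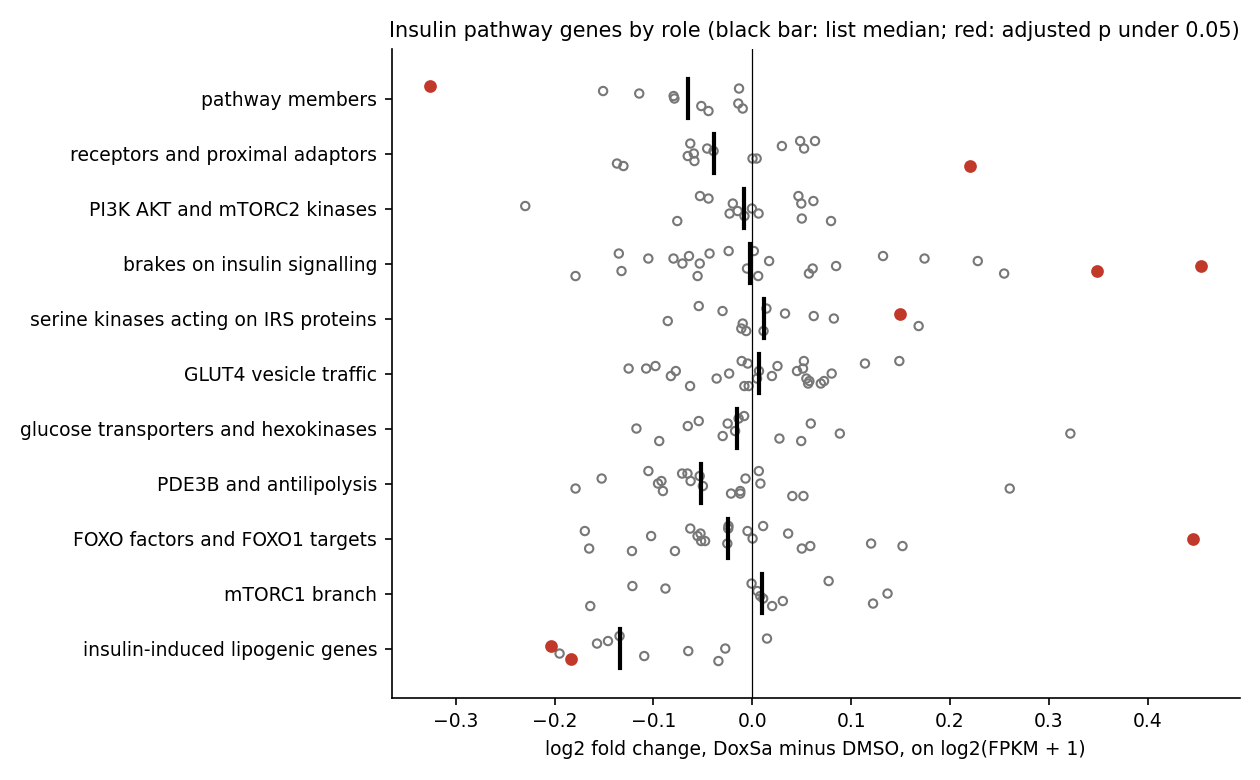
Log2 fold changes (DoxSa minus DMSO, on log2(FPKM + 1)) of all tested genes of the pathway by role, with a point for each gene, red where the adjusted p was under 0.05, and a black bar for the list median. The medians lie between -0.13 for the lipogenic genes and 0.01 for the serine kinases, and 8 points are red, Irs3 among them.

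The annotation terms in the deposited table give the pathway in another cut, taken up after the table was seen. Of 117 tested genes with the term for insulin signaling 0 rose and 4 fell, namely Irs3, Prkab2, Pygb and Pygl. Those 4 are 3.42%, where 2.02% of all tested genes were called lower, 3.88% higher and 5.9% in either direction. Prkab2 encodes a subunit of the energy sensor AMPK, and Pygb and Pygl encode glycogen phosphorylases. Prkab2 measured 7.12 ± 0.146 FPKM in DoxSa and 8.27 ± 0.377 FPKM in DMSO (log2 fold change -0.19 ± 0.04, limma adjusted p = 0.0234), and Pygl measured 78.3 ± 2.76 FPKM in DoxSa and 86.0 ± 1.13 FPKM in DMSO (-0.13 ± 0.03, adjusted p = 0.0387). Of 91 genes with the term for insulin resistance 3 rose and 3 fell, or 6.59%. Those that rose were Gfpt2, of hexosamine synthesis, and the NF-kB genes Nfkb1 and Nfkbia. Nfkbia, an inhibitor of NF-kB, measured 32.6 ± 1.39 FPKM in DoxSa and 25.8 ± 2.17 FPKM in DMSO (0.33 ± 0.06, adjusted p = 0.00732). Of 43 genes for lipolysis in adipocytes 2 rose and 1 fell, or 6.98%, and of 109 for FoxO signaling 5 rose and 5 fell, or 9.17%, with Irs3 the member of the pathway called in each.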

How the data were processed

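RNA of 8 samples was sequenced, 4 with DoxSa and 4 with DMSO, grouped and numbered by their titles. Per the labels' protocols, TRIzol served for extraction and a VAHTS Universal V6 kit for the libraries. The submitters' processing notes name the aligner HISAT2, the counter HTSeq and the build GRCm39. Tool versions, the annotation and any strand setting were not found in the labels. FPKM per gene and library is what the authors deposited. FPKM carries no correction for a few abundant genes. Library totals and gene lengths were recovered from the FPKM steps, and 12060 of 12060 tested genes gave whole reads (within 0.001). The SDs and SEs stated beside the values rest on the spread between libraries and are not set by read depth alone. For Slc2a4 in DoxSa the coefficient of variation was 7.91%, where counting error alone would give 2.01%.

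The test was limma 3.58.1 (R 4.3.3), with lmFit and an eBayes prior that follows intensity, on log2(FPKM + 1) of genes averaging 0.5 FPKM or more, without covariates, adjusted over all tested genes. Fold changes on this scale understate those of low genes. Standard errors are moderated. The limma fit, under some of the settings, and the recovery of reads were tested on simulated data. The permutation test of the ratios was not. Alternatives changed the pseudocount, filter, trend, weights, scaling and test (voom on recovered reads, which called 944 genes against 712), added a replicate block and left out each library. Ratios were tested in Python 3.11.15 with scipy 1.17.1. Named genes were the 10 members, a panel of relatives and brakes, and from each list up to 4 called genes in the direction with more calls, plus up to 2 in the opposite one; genes of annotation terms, Retn and the macrophage and fibroblast genes were named after their values were seen. The panel is given only in part. Members and lists were chosen with earlier results of these data known.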

Additional observations from a re-analysis of the deposited data

Results flagged for a closer look

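Within the groups of 4 libraries, the gap between an extreme library and its nearest neighbour was set against the whole range for the named genes and the 10 ratios, which made 86 groups. Of these 6 passed Dixon's critical value at 95%, and chance flags about 1 in 20. Akt2 was low in DoxSa 2, at 27.0 FPKM, while the other DoxSa libraries lay between 27.7 and 27.8 FPKM. Lnpep was low in the same library, at 11.04 FPKM, against 12.7 to 12.9 FPKM in the other DoxSa libraries. Igf1r and Tbc1d1 were high in DMSO 2, at 3.80 and 4.52 FPKM, where the other DMSO libraries held 3.31 to 3.38 and 3.89 to 3.99 FPKM. The ratio of Irs3 to Irs2 was low in DoxSa 1, at 0.884, with the other DoxSa libraries between 1.09 and 1.13. The ratio of Slc2a4 to Slc2a1 was low in DMSO 1, at 0.295, with the other DMSO libraries between 0.314 and 0.318.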

How the results depend on the processing

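The 10 members had 0 calls as higher in all 19 alternatives. The count called lower, 1 in the report, was 0 with no filter on low values, with library quality weights and with the replicate block, and 0 to 1 with a library left out; without DoxSa 1 the 1 member called was Slc2a4 and not Irs3. For the other pathway genes, called 5 higher and 2 lower, no filter gave 2 and 0, voom 8 and 4, no intensity trend and a pseudocount of 0.01 0 and 1 lower, the block 1 lower, and left-out libraries 4 to 7 higher and 0 to 2 lower. Over all genes, 468 higher and 244 lower became 158 and 108 with no filter, and 233 to 490 and 152 to 235 with a library left out. With no filter, p was adjusted over 22962 genes in place of 12060.

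Signs of log2 fold changes near 0 turned. With library quality weights they were 0.0077 for Tbc1d4 and -0.0024 for Ptpn1. Ptpn1 was -0.0070, -0.0098 and -0.020 with equal FPKM sums, median-of-ratios and quantile scaling, and Adipoq was 0.0046 with quantile scaling. With a library left out, the ranges were -0.052 to 0.013 for Irs2, -0.064 to 0.017 for Tbc1d4, -0.036 to 0.014 for Foxo1, -0.030 to 0.031 for Ptpn1 and -0.031 to 0.0094 for Adipoq. The cause of these changes was not tested. Same-numbered libraries did not deviate together (correlations of -0.0581, 0.0519, -0.0989 and 0.0654), which cannot settle whether they share a culture or animal. With the replicate block 624 genes were called in place of 712, and the log2 fold change of Irs3 stayed -0.33 (limma adjusted p = 0.0537). Pik3r3 and Trib3 passed under the block (adjusted p = 0.0416 and 0.0375).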
